A study of Mus musculus with 30 samples.

Results

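The acrosome genes Acr, Acrbp, Acrv1, Spaca1, Zpbp, Zpbp2, Spink2, Crisp2, Fabp9 and Dkkl1 were followed through the first weeks of testis development in mice with and without a working Prdm9. They are 10 of the 65534 rows of the expression table and were chosen by name, as genes of proteins placed in or against the acrosome, through the Ensembl identifiers of the rows. The choice was made with earlier results of these data known. RNA with poly(A) tails was sequenced from germ cells enriched from testes, 1 library per animal, 30 libraries in all. The mice were male C57BL/6J carrying under 10% of 129S1/SvImJ at 8, 12 and 16 days post partum (dpp). Their genotypes were Prdm9+/+, Prdm9+/- and Prdm9-/-. At 8 dpp these numbered 3, 2 and 5 animals; the 12 dpp set held 1, 4 and 5, and the set of 16 dpp 2, 3 and 5. Below, mutant stands for -/- and non-mutant for +/+ and +/- pooled within an age, with n = 5 against 5 at each age. The labels do not say how the Prdm9 allele was inactivated.

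The acrosome is a lysosome-related vesicle that grows from the Golgi apparatus and caps the front of the sperm nucleus. Its enzymes and zona-binding proteins are exposed or released when the sperm meets the coat of the egg. The organelle takes shape in round spermatids, after meiosis, but several of its genes are already transcribed in pachytene spermatocytes. Prdm9 encodes the histone methyltransferase that marks the sites of meiotic recombination, and mouse spermatocytes without it arrest at a pachytene-like stage. In the first wave of spermatogenesis the most advanced germ cells are those entering meiosis at 8 dpp, leptotene and zygotene spermatocytes at 12 dpp, and pachytene spermatocytes at 16 dpp. The comparison of genotypes therefore asks how much acrosomal RNA accumulates with and without Prdm9 at each of these ages.

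The values are TPM, a transcript's share of its library scaled for length. Differences were tested with limma on log2(TPM + 1), in 1 fit that gives each row 1 spread for all ages. A gene's SE for the genotype difference is therefore the same at each age. Where the oldest non-mutants vary most, SEs and p-values at their age tend to be too small. Intervals at the younger ages then tend to be too wide. A gene is said to rise or fall where its p-value was under 0.05 after Benjamini-Hochberg adjustment, which took in every row tested. Rows over 1 TPM in at least 5 libraries were tested, 20021 in all. The depth of the libraries is unknown, since TPM keeps none.

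The promoters of these genes are shown first, as a description of their upstream DNA. RefSeq promoter entries (GRCm38.p6) were matched for 8 of the 10 genes, the exceptions being Acr and Fabp9. The 250 bases before each start were read, and those free of annotated exons are printed. They are Zpbp (chr11:11462420-11462669, minus strand), Zpbp2 (chr11:98550847-98551096, plus strand), Spink2 (chr5:77211472-77211721, minus strand) and Crisp2 (chr17:40794147-40794396, minus strand). The Crisp2 window precedes a RefSeq start at 40794146. It lies inside the GENCODE span of the gene, 40764020 to 40807003, whose upstream end is at 40807003. Spaca1 (chr4:34050192-34050317, minus strand), the gene that did not fall in mutants, is shown for contrast over the 126 bases that lie outside its annotated exon. Each runs 5′ to 3′ on the gene's strand, with matches to the motifs searched in capitals.
Zpbp: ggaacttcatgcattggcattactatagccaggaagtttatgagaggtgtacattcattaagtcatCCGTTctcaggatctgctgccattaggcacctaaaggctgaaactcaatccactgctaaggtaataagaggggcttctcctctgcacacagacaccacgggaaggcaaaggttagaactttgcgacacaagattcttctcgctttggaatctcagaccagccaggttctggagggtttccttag
Zpbp2: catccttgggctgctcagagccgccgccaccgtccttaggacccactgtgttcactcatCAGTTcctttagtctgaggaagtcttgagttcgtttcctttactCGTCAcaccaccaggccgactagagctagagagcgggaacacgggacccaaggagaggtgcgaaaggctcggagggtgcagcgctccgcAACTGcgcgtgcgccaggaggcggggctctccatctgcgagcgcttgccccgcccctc
Spink2: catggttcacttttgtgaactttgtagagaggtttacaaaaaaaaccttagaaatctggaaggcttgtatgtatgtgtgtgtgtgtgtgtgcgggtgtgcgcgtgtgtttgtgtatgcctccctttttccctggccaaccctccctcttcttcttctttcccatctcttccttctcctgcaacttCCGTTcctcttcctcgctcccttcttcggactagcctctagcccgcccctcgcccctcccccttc
Crisp2: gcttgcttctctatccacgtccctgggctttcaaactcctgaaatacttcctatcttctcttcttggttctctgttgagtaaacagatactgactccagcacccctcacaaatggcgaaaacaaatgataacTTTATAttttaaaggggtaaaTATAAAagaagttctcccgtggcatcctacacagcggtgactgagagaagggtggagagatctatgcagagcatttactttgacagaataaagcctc
Spaca1: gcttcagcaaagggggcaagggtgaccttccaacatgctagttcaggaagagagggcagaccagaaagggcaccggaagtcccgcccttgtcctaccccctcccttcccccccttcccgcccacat

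The motifs were the MYB core in the forms AACTG and AACGG, the cAMP response element TGACGT with its shorter core TGACG, which lies within it, the RFX sites GTTGCC and GTTGCT, and TATAAA, each on both strands. Zpbp2 holds AACTG 2 times, and this form occurs in 39.1% of 27025 promoters of the same length. The other MYB form, AACGG, is in Zpbp and Spink2 and in 14.8% of promoters. TGACG is in Acrbp, Spaca1 and Zpbp2 and in 17.8% of promoters. The longer TGACGT is in Acrbp alone among the 8 genes and in 6.52% of promoters. GTTGCC is in Acrbp and Dkkl1 and in 10.5% of promoters, and GTTGCT, in 12.2% of promoters, is in none of the 8. The Crisp2 window, which lies inside the longer annotated gene, holds TATAAA 2 times, and 13% of promoters hold it. Thus no motif searched was shared by more than 3 of the 8 promoters, and the most widely shared, TGACG, was also present in Spaca1. Its 2 matches there lie outside the printed stretch.

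Prdm9 itself was read as a check of the labels. At 16 dpp the non-mutants lay at 19.71 to 34.41 TPM and the mutants at 6.89 to 12.77 TPM, so the groups did not overlap. At 8 dpp the mutant mean was 7.23 TPM against 4.80 TPM, so the level does not separate the genotypes at that age. In litter 13, of 12 dpp, Prdm9 went against the labels, with 19.2 TPM in the library labelled -/- replicate 5 and 9.16 TPM in the library labelled +/- replicate 4. Leaving that litter out ended 2 calls of acrosome genes, which are given with the age steps. The cells were labelled as enriched germ cells, but Sertoli cell markers were present in every library, with a summed level over 14 genes of 8187 to 12336 TPM, against 341 to 2473 TPM for 6 general germ cell markers. At 16 dpp the Sertoli sums were 9152 to 10620 TPM in non-mutants and 9491 to 11141 TPM in mutants. In such bulk RNA, fewer cells of a type and less RNA per cell cannot be told apart.

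**Figure D1:**
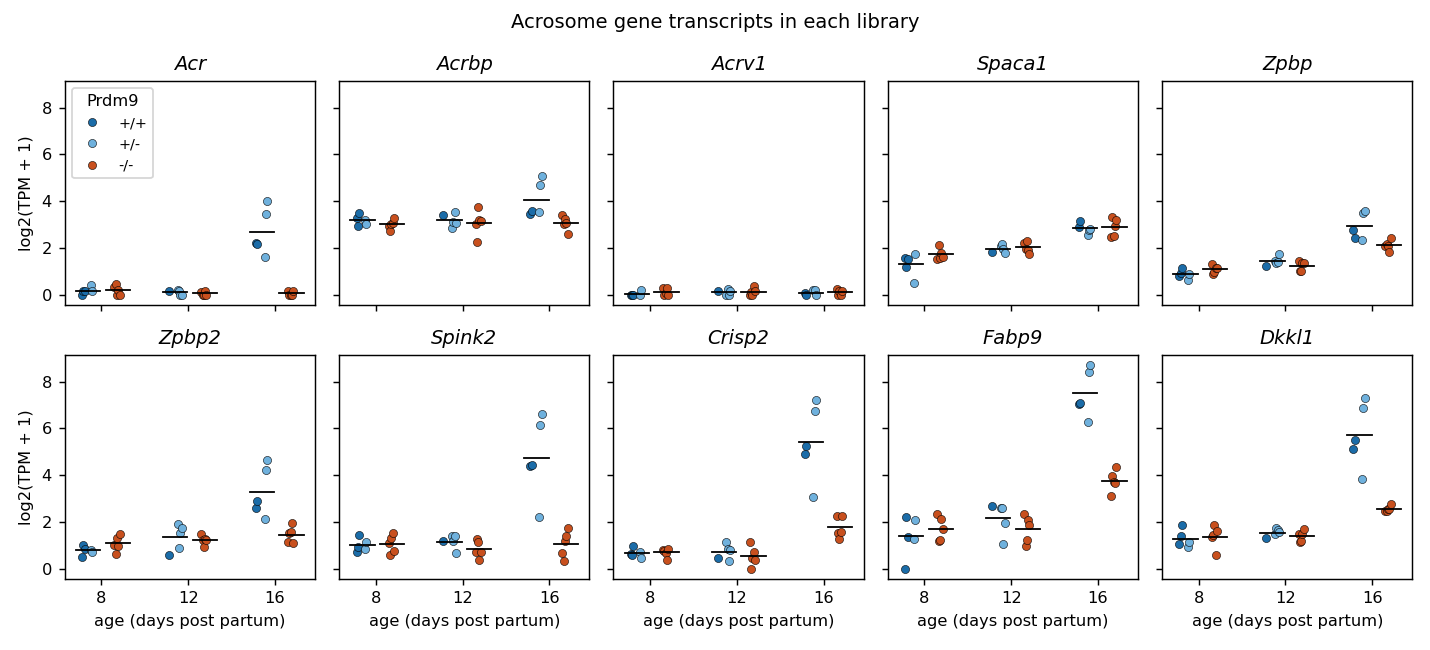
Level of each of the 10 acrosome genes in every library, as log2(TPM + 1) against age in days post partum. Each point is 1 library, coloured by Prdm9 genotype (blue shades +/+ and +/-, orange -/-), and bars are the means of the 5 non-mutant and the 5 mutant libraries of an age. Acr, Acrbp, Zpbp2, Spink2, Crisp2, Fabp9 and Dkkl1 have non-overlapping groups at 16 dpp, while Spaca1 climbs alike in both and Acrv1 stays near 0.

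The first group is acrosin with its inhibitor and its binding partner. Acr (ENSMUSG00000022622, chromosome 15, 89568326 to 89574585, mm10) encodes acrosin, the serine protease stored in the acrosome as an inactive proenzyme. It was at most 0.36 TPM in every library of 8 and 12 dpp. At 16 dpp it stood at 3.65 and 3.52 TPM in the +/+ libraries and at 2.04, 9.97 and 14.97 TPM in the +/- libraries. The 5 mutants had 0.12, 0, 0, 0 and 0.11 TPM, all under every non-mutant. On the log2(TPM + 1) scale the mutants were lower by 2.63 (log2 fold change -2.63, SE 0.26, adjusted p = 3.13e-08). Acr entered the test only through its 5 non-mutant libraries of 16 dpp, so a difference was bound to appear there.

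Spink2 (ENSMUSG00000053030, chromosome 5, 77205107 to 77211471) encodes an inhibitor that keeps acrosomal serine proteases in check. At 16 dpp it had 19.97 and 20.35 TPM in +/+ libraries, 3.60, 70.61 and 95.79 TPM in +/- libraries, and 0.61, 0.27, 1.29, 1.62 and 2.33 TPM in mutants. The groups did not overlap, and the mutant mean was 2.91% of the non-mutant mean. The log2 fold change was -3.68 (SE 0.47, adjusted p = 2.50e-06). This SE is shared over the ages, although the non-mutants spanned 3.60 to 95.79 TPM at 16 dpp and 0.59 to 1.66 TPM at 12 dpp. The SE and the p-value therefore tend to be too small here. The inhibitor was above its protease in each 16 dpp non-mutant, with means of 42.1 ± 39.2 TPM (SD, n = 5) against 6.83 ± 5.48 TPM for Acr, but by little in +/- replicate 1, at 3.60 against 2.04 TPM.

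Acrbp (ENSMUSG00000072770, chromosome 6, 125049689 to 125063267) encodes the protein that binds proacrosin and holds it in the forming vesicle. Before 16 dpp it had the highest mean of the 10 genes, at 8.17 ± 1.44 TPM in non-mutants of 8 dpp and 8.22 ± 1.76 TPM at 12 dpp (SD, n = 5). At 16 dpp it had 10.07 and 10.79 TPM in +/+ libraries, 10.73, 24.64 and 32.67 TPM in +/- libraries, and 9.72, 7.22, 8.37, 7.26 and 5.12 TPM in mutants. The groups are separated by 10.07 against 9.72 TPM, and 3 of the 5 non-mutants lie close to that edge. Its fall was smaller (log2 fold change -0.997, SE 0.26, adjusted p = 0.0213). Without the 2 highest +/- libraries the change was -0.46 (adjusted p = 0.791) and was not called. Fits of the 16 dpp libraries alone also lost the call, with litter as a fixed block (adjusted p = 0.126) or without litter (adjusted p = 0.125). A random litter block over all ages kept Acrbp called. Its exons share 975 bases with Gm44597 on the same strand, so its reads are uncertain.

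Zpbp and Zpbp2 encode paralogous proteins of the acrosomal matrix that bind the zona pellucida, the coat of the egg. Zpbp2 (ENSMUSG00000017195, chromosome 11, 98551097 to 98558665) had 5.01 and 6.39 TPM in +/+ libraries of 16 dpp, 3.34, 17.49 and 23.84 TPM in +/- libraries, and 1.2, 1.84, 1.99, 2.86 and 1.12 TPM in mutants. These groups did not overlap (log2 fold change -1.84, SE 0.33, adjusted p = 0.000400). Zpbp (ENSMUSG00000020193, chromosome 11, 11279626 to 11462408) had 5.86 and 4.41 TPM in +/+ libraries, 4.06, 10.18 and 10.92 TPM in +/- libraries, and 3.21, 3.44, 3.24, 2.55 and 4.39 TPM in mutants. Here the highest mutant exceeded the lowest non-mutant (log2 fold change -0.81, SE 0.19, adjusted p = 0.00856). That call was lost without the 2 highest +/- libraries, at -0.40 (adjusted p = 0.567). Fits of the 16 dpp libraries alone also lost it, with litter as a fixed block (adjusted p = 0.0719) or without litter (adjusted p = 0.1195). A random litter block over all ages kept Zpbp called. The mutants kept 47.5% of the non-mutant mean of Zpbp but 16.1% of that of Zpbp2. Exons of Zpbp share 223 bases with genes on the opposite strand, of which Spata48 had a mean of 0.538 TPM in the 16 dpp non-mutants.

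Dkkl1 (ENSMUSG00000030792, chromosome 7, 45207519 to 45212147) encodes a secreted glycoprotein related to the Dickkopf family that is stored in the acrosome. At 16 dpp it had 34.26 and 44.81 TPM in +/+ libraries and 13.25, 117.79 and 155.48 TPM in +/- libraries. The mutants were tightly grouped at 4.55, 4.58, 4.81, 4.91 and 5.70 TPM. Their highest value was 1.25 times their lowest, while the non-mutants spanned 11.7 times. The log2 fold change was -3.17 (SE 0.37, adjusted p = 7.19e-07).

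Crisp2 (ENSMUSG00000023930, chromosome 17, 40764020 to 40807003) encodes a cysteine-rich secretory protein found in the acrosome and in the sperm tail. It had 29.23 and 36.99 TPM in +/+ libraries of 16 dpp, 7.27, 106.85 and 147.31 TPM in +/- libraries, and 3.79, 1.91, 1.43, 1.95 and 3.82 TPM in mutants. The groups did not overlap (log2 fold change -3.65, SE 0.44, adjusted p = 8.94e-07). The mutant mean, 2.58 TPM, was 3.94% of the non-mutant mean.

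Fabp9 (ENSMUSG00000027528, chromosome 3, 10193621 to 10197283) encodes a fatty acid-binding protein of the perforatorium, the material under the acrosome. It was the most abundant of the 10 in each 16 dpp non-mutant, with 130.13 and 135.78 TPM in +/+ libraries and 76.8, 337.19 and 415.99 TPM in +/- libraries. The mutants had 7.66, 14.72, 11.93, 11.77 and 19.42 TPM, so the groups were far apart (log2 fold change -3.74, SE 0.42, adjusted p = 3.60e-07). Its exons share 344 bases with Gm37389 on the same strand.

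Spaca1 and Acrv1 stood apart from the other 8 genes. Spaca1 (ENSMUSG00000028264, chromosome 4, 34024874 to 34050191) encodes a protein of the inner acrosomal membrane that is needed for the vesicle to form. It had 6.43 and 7.85 TPM in +/+ libraries of 16 dpp, 4.87, 5.89 and 6.03 TPM in +/- libraries, and 4.47, 8.98, 4.62, 6.65 and 8.09 TPM in mutants. The ranges lie over each other, and the log2 fold change was 0.04 (SE 0.20, 95% interval -0.36 to 0.44, adjusted p = 0.958). Acrv1 (ENSMUSG00000032110, chromosome 9, 36693220 to 36698843) encodes an acrosomal matrix antigen of spermatids. Its level was at most 0.29 TPM in every library and 0 in 14 of the 30, so it could not be tested.

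In the fit over all rows at 16 dpp, 8 of the 9 tested genes fell in mutants and 0 rose. They were Acr, which had to differ once it passed the filter, and Acrbp, Zpbp, Zpbp2, Spink2, Crisp2, Fabp9 and Dkkl1. Over all 20021 rows 2.75% fell and 0.509% rose. The groups did not overlap for 7 of the 10 genes, with the mutants lower in each. Such separation, with mutants lower, was found in 2.28% of all rows, and for Acr it was bound to follow from the filter. In an exact two-sided permutation test of each gene alone, over 252 regroupings of the 10 libraries, these 7 genes had p = 0.007937, the smallest value the design allows. Groups that do not overlap always give this value, so for these 7 it only restates the separation. By the same exact test Zpbp had p = 0.01587, Spaca1 p = 0.825 and Acrv1 p = 0.905. These regroupings take no account of litters. When genotypes were swapped only within the 5 litters, an exact test added after the data were seen, the smallest possible two-sided p was 0.0625, so no gene could pass 0.05, and the 8 genes other than Spaca1 and Acrv1 stood at that value.

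**Figure D2:**
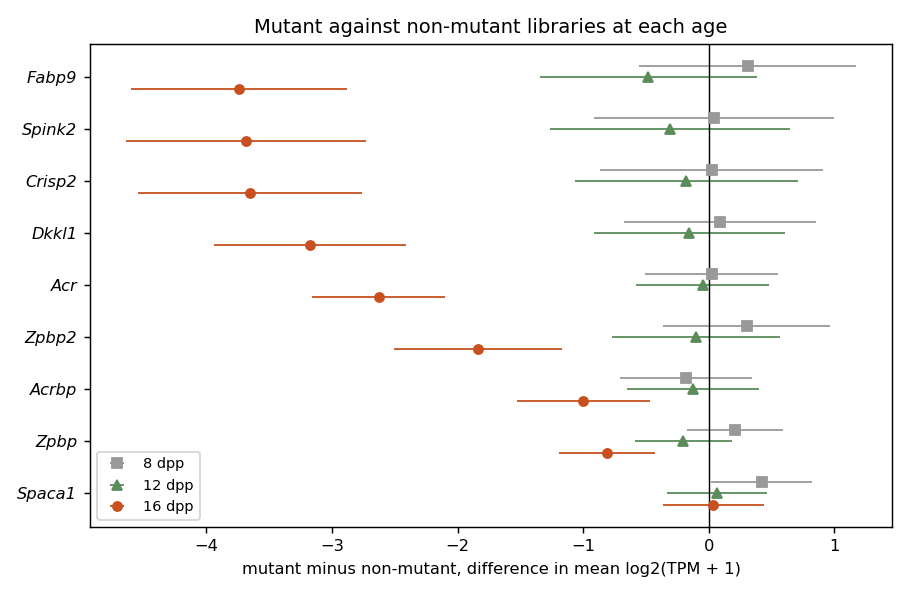
Mutant minus non-mutant difference of the mean log2(TPM + 1) for the 9 tested genes, on the horizontal axis, at 8 dpp (squares), 12 dpp (triangles) and 16 dpp (circles). Lines are 95% intervals from the fit, whose spread is shared over ages, so a gene's interval has the same width at each age. At 16 dpp the differences run from -3.74 for Fabp9 to 0.04 for Spaca1, and the 8 dpp and 12 dpp differences lie between -0.48 and 0.42.

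The non-mutants of 16 dpp varied widely, and in a shared order. For 8 of the 9 genes above 1 TPM, +/- replicate 3 was the highest and +/- replicate 2 the next highest library, the exception being Spaca1. For 8 of the 9, +/- replicate 1 was the lowest, the exception being Acrbp. The ratio of highest to lowest non-mutant was 26.6 for Spink2, 20.3 for Crisp2, 11.7 for Dkkl1, 7.34 for Acr, 7.14 for Zpbp2, 5.42 for Fabp9, 3.24 for Acrbp, 2.69 for Zpbp and 1.61 for Spaca1. The summed level of 19 markers of pachytene and diplotene spermatocytes followed the same order, at 753.65 and 795.85 TPM in +/+ libraries, 501.36, 1650.05 and 2059.55 TPM in +/- libraries, and 256.45 to 319.47 TPM in mutants. Of the 14 pachytene and diplotene markers tested, 11 fell at 16 dpp and 0 rose, where 2.75% of all rows fell. Their median log2 fold change was -1.80 against 0.07 over all rows. Of the 14, 3 passed the filter only with the 16 dpp non-mutants. The part of these cells in the acrosome gene differences was not tested. Tested against the +/+ libraries alone, 5 genes remained called in mutants, namely Zpbp2, Spink2, Crisp2, Fabp9 and Dkkl1, and the same genes were called without the 2 highest +/- libraries. Their log2 fold changes without those 2 libraries were -1.08 for Zpbp2 (adjusted p = 0.0292), -2.60 for Spink2, -2.62 for Crisp2, -3.04 for Fabp9 and -2.27 for Dkkl1. Under both settings Acr was no longer over 1 TPM in 5 libraries and was not tested. Fewer of all rows were also called under both settings, as counted in the closing section.

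Markers of other cells gave few calls. Of 6 general germ cell markers, Ddx4 fell (log2 fold change -0.61, adjusted p = 0.0276). The 6 changes ran from -0.608 to -0.001, with a median of -0.21. Germ cell marker sums were 1834 to 2473 TPM in non-mutants and 1616 to 2023 TPM in mutants of 16 dpp. Of 14 spermatid markers 3 were tested, Izumo1, Tnp1 and Tssk6, and 0 were called. The summed level of the 14 was 3.82 to 4.67 TPM in non-mutants and 3.65 to 6.69 TPM in mutants of 16 dpp. Each 16 dpp non-mutant had 7 or 8 of the 14 at 0, Prm1, Prm2 and Tnp2 among them, and each mutant 4 to 7. Of 13 leptotene and zygotene markers 0 were called, with a median of -0.15. Of 14 Sertoli markers 0 were called, with a median of 0.10. Macrophage marker sums were 72.2 to 157 TPM in non-mutants and 107 to 204 TPM in mutants, Leydig cell sums 107 to 391 and 187 to 519 TPM, and erythroid sums 94.3 to 463 and 191 to 720 TPM, with 0 markers of these lists called. The medians of these lists were nonetheless above that of all rows, at 0.56 for macrophage, 0.70 for Leydig cell and 0.97 for erythroid markers. Their part was not tested.

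Litter mates, as read from the column names, were compared at 16 dpp. In 5 litters a mutant and a non-mutant were sequenced, and 8 of the 10 genes were lower in the mutant in every litter, as were 5.85% of all rows tested. For Acr, 1 of the 8, the filter had fixed that direction. The difference in log2(TPM + 1) ran from -4.73 to -3.06 for Fabp9, from -5.19 to -0.79 for Crisp2, from -4.86 to -1.51 for Spink2 and from -4.55 to -1.36 for Dkkl1. It ran from -3.85 to -1.44 for Acr, from -3.55 to -0.98 for Zpbp2, from -1.66 to -0.27 for Zpbp and from -2.46 to -0.13 for Acrbp. Spaca1 was lower in the mutant in 2 of 5 litters, with differences from -0.66 to 0.43, and Acrv1 in 2 of 5. The widest differences were in the litters of +/- replicates 2 and 3, and the narrowest, for every one of the 8 genes but Fabp9, in the litter of +/- replicate 1.

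**Figure D3:**
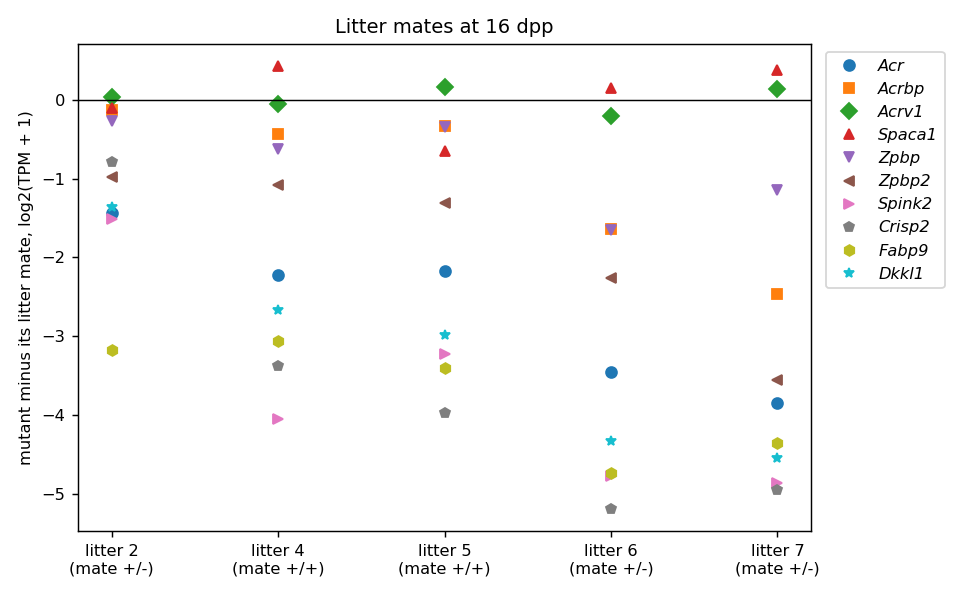
Mutant minus litter mate at 16 dpp, in log2(TPM + 1), for the 10 acrosome genes in each of the 5 litters, with the genotype of the mate given under the axis. Each symbol is 1 gene in 1 pair. Fabp9 lies between -4.73 and -3.06 in every litter, while Spaca1 and Acrv1 scatter around 0.

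Before 16 dpp no difference between genotypes was found in these genes. The spread is shared over ages, so intervals before 16 dpp tend to be too wide for genes whose 16 dpp non-mutants vary most. At 12 dpp 0 of 9 were called, with log2 fold changes from -0.48 for Fabp9 to 0.07 for Spaca1, and 0 of all 20021 rows (0%) were called by limma. At an unadjusted p under 0.05 there were 225 rows, of which 0 were acrosome genes. Fabp9 at 12 dpp had a mean of 3.90 TPM in non-mutants (1.05 to 5.40) and 2.44 TPM in mutants (0.95 to 4.08), which overlap. At 8 dpp 0 of 9 were called, with changes from -0.18 for Acrbp to 0.42 for Spaca1, and again 0 of all rows (0%) were called by limma. Of 417 rows with an unadjusted p under 0.05 at 8 dpp, 1 was an acrosome gene, Spaca1 (unadjusted p = 0.0401). It had 1.56 ± 0.756 TPM in non-mutants and 2.33 ± 0.627 TPM in mutants of that age (SD, n = 5). The groups overlapped for each of the 10 genes at both ages, where 0.180% of all rows at 8 dpp and 0.200% at 12 dpp did not overlap.

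The age steps show when the RNAs appear. From 12 to 16 dpp in non-mutants, the 9 tested genes rose, where 8.88% of all rows rose. Crisp2 went from 0.674 ± 0.381 to 65.5 ± 59.0 TPM (SD, n = 5; log2 fold change 4.72, SE 0.44, adjusted p = 3.85e-09). Fabp9 went from 3.90 ± 1.88 to 219 ± 148 TPM (5.33, SE 0.42, adjusted p = 2.69e-10). Dkkl1 went from 1.93 ± 0.330 to 73.1 ± 60.6 TPM (4.19, SE 0.37, adjusted p = 1.95e-09), and Spink2 from 1.27 ± 0.426 to 42.1 ± 39.2 TPM (3.60, SE 0.47, adjusted p = 1.63e-06). The zona-binding pair rose less, Zpbp2 by 1.95 (adjusted p = 6.00e-05) and Zpbp by 1.49 (adjusted p = 1.09e-06). Spaca1 rose by 0.88 (adjusted p = 0.00157) and Acrbp by 0.88 (adjusted p = 0.0138), the latter no longer called without +/- replicate 2 (adjusted p = 0.0546) or replicate 3 (adjusted p = 0.0735). The rise of Acr, 2.59 (adjusted p = 1.66e-08), carries the same limit of its filter as above.

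From 8 to 12 dpp only Spaca1 and Zpbp of the 9 rose in non-mutants, where 20.3% of all rows rose, a share close to that of the acrosome genes. Spaca1 rose by 0.66 (SE 0.20, adjusted p = 0.0104) and Zpbp by 0.56 (SE 0.19, adjusted p = 0.0221). Without +/- replicate 1 of 8 dpp neither was called (adjusted p = 0.0531 and 0.0609). Zpbp was not called without litter 13 (adjusted p = 0.0737), without its library +/- replicate 4 alone (adjusted p = 0.0676) or after quantile normalization (adjusted p = 0.0665). In mutants 0 of 9 were called over this step, where 17.5% of all rows rose.

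In mutants the step from 12 to 16 dpp called 4 of the 9 genes, where 6.21% of all rows rose. Fabp9 rose by 2.07 (SE 0.42, adjusted p = 0.00134), from 2.44 ± 1.30 to 13.1 ± 4.34 TPM. Zpbp rose by 0.88 (SE 0.19, adjusted p = 0.00202), Spaca1 by 0.85 (SE 0.20, adjusted p = 0.00391) and Dkkl1 by 1.17 (SE 0.37, adjusted p = 0.0383). Dkkl1 was no longer called without litter 13 (adjusted p = 0.0519), with no filter on low rows (adjusted p = 0.0917), or without any of 9 single mutant libraries of 12 or 16 dpp (adjusted p from 0.0536 to 0.0853). Crisp2 went from 0.502 ± 0.451 to 2.58 ± 1.14 TPM and missed the threshold (1.25, SE 0.44, adjusted p = 0.0596). It passed with a pseudocount of 0.1 (adjusted p = 0.0068), only the groups compared (adjusted p = 0.00498) and weights per group (adjusted p = 0.0227). It also passed without +/- replicate 1, 2 or 3 of 16 dpp (adjusted p = 0.00643, 0.0437 and 0.02605) or without the 2 highest +/- libraries (adjusted p = 0.0042). The other alternatives gave no call of Crisp2. Spink2, Zpbp2, Acr and Acrbp changed by 0.22, 0.22, 0.01 and 0.01 and were not called.

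**Figure D4:**
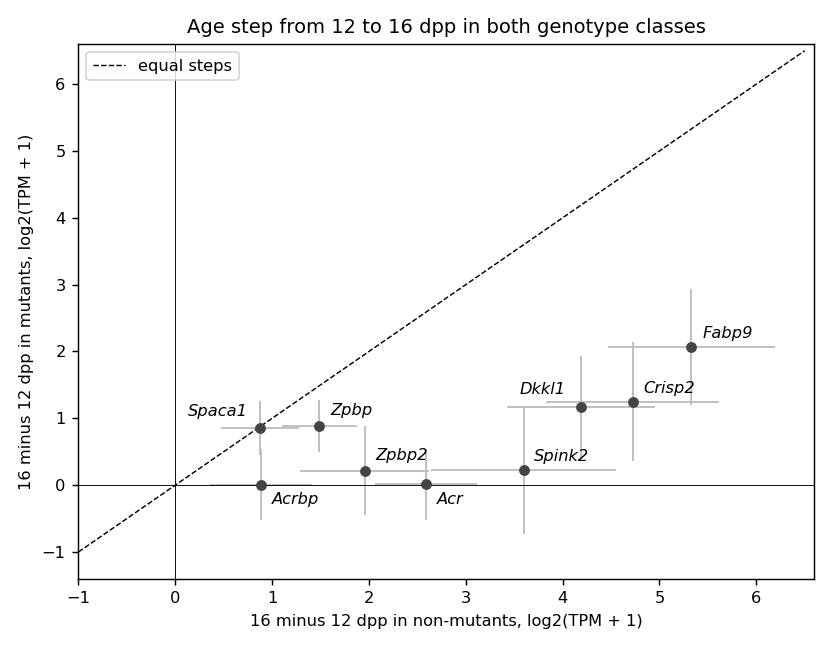
Change of the mean log2(TPM + 1) from 12 to 16 dpp in non-mutants (horizontal axis) and in mutants (vertical axis) for the 9 tested acrosome genes. Points are the fitted changes, bars are 95% intervals, and the dashed line marks equal steps. Spaca1 lies on the line, at 0.88 and 0.85, while Crisp2, Spink2, Fabp9, Dkkl1 and Acr lie far under it.

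The difference between the 2 age steps was tested directly. It was negative, that is, the rise was smaller in mutants, for 5 called genes of the 9, where 1.26% of all rows were called in that direction. Acr is 1 of the 5, and the filter, which it passed only through the 16 dpp non-mutants, favoured a negative value without fixing it. The values were -3.48 for Crisp2 (SE 0.62, adjusted p = 0.00108), -3.37 for Spink2 (SE 0.66, adjusted p = 0.00318), -3.26 for Fabp9 (SE 0.60, adjusted p = 0.00155), -3.02 for Dkkl1 (SE 0.53, adjusted p = 0.000920) and -2.58 for Acr (SE 0.37, adjusted p = 5.89e-05). Zpbp2, at -1.74, missed the threshold (adjusted p = 0.0546), and it passed with litter as a random replicate block (adjusted p = 0.0111), median-ratio scaling (adjusted p = 0.0381), quantile normalization (adjusted p = 0.0364), weights per group (adjusted p = 0.0267) and +/+ libraries alone as controls (adjusted p = 0.0468). Acrbp at -0.87 (adjusted p = 0.493) and Zpbp at -0.61 (adjusted p = 0.561) were not called. Spaca1 stood at -0.03 with a 95% interval from -0.60 to 0.54, so its rise of the mean TPM, 2.14 times in non-mutants and 2.11 times in mutants, differed between genotypes by no more than that interval allows. Fabp9 lost its call with a pseudocount of 0.1, at -3.21 (adjusted p = 0.152), and against +/+ libraries alone, at -2.32 (adjusted p = 0.658). The +/+ arm holds 1 library at 12 dpp, which the fit takes to vary like the other groups.

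The order of the genes by level changed with genotype at 16 dpp. In non-mutants it ran Fabp9, Dkkl1, Crisp2, Spink2, Acrbp, Zpbp2, Zpbp, Acr, Spaca1 and Acrv1 by mean TPM. Fabp9 exceeded Dkkl1, Dkkl1 exceeded Crisp2 and Crisp2 exceeded Spink2 in each of the 5 libraries. Among the lower genes, Zpbp2 exceeded Zpbp in 3 of 5 libraries and Acr exceeded Spaca1 in 2 of 5, so these neighbours do not differ beyond their spread. In mutants the order was Fabp9, Acrbp, Spaca1, Dkkl1, Zpbp, Crisp2, Zpbp2, Spink2, Acrv1 and Acr. There Acrbp exceeded Spaca1 in 3 of 5 libraries and Spaca1 exceeded Dkkl1 in 3 of 5. At 8 dpp Acrbp was first in both classes, above the second gene, Fabp9, in each library. The summed level of the 10 genes was 126.1 to 903 TPM in non-mutants and 35.5 to 50.2 TPM in mutants at 16 dpp.

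Heterozygotes and wild-type animals were compared over the 15 non-mutant libraries with age as a factor, since they were pooled elsewhere. Of the acrosome genes 0 were called, with log2 fold changes from -0.18 for Spaca1 to 0.56 for Zpbp2, and 0 of 18668 rows (0%) were called by limma. At an unadjusted p under 0.05 there were 1972 rows, more than 0.05 of the 18668, of which 0 were acrosome genes. The comparison averages over ages, with 1 +/+ library at 12 dpp. At 16 dpp the +/- means were above the +/+ means for all genes but Spaca1 (5.60 against 7.14 TPM). Spink2 had 56.7 against 20.2 TPM, Acr 8.99 against 3.59 TPM and Acrbp 22.7 against 10.4 TPM. That difference at 16 dpp alone was not tested.

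Further genes of the acrosome were read from 2 longer lists, also chosen with earlier results of these data known. Of 49 other acrosomal or acrosome-linked proteins 14 were tested. At 16 dpp 6 of these fell in mutants and 0 rose, where 2.75% of all rows fell, with a median log2 fold change of -0.78 against 0.07 over all rows. Pdcl2, a phosducin-like protein of male germ cells, had 54.4 ± 37.0 TPM in non-mutants and 4.17 ± 0.826 TPM in mutants (-3.11, adjusted p = 9.74e-08). Atp8b3, a phospholipid flippase of the acrosomal membrane, had 26.2 ± 25.6 and 0.682 ± 0.117 TPM (-3.38, adjusted p = 1.27e-06). Lypd4, a GPI-anchored sperm surface protein, had 22.5 ± 16.8 and 2.64 ± 0.330 TPM (-2.37, adjusted p = 4.60e-06). Catsperd, which is a subunit of the calcium channel of the sperm tail and passed the filter only with the 16 dpp non-mutants, had 4.43 ± 3.70 and 1.03 ± 0.332 TPM (-1.18, adjusted p = 0.00405). Tex101, a GPI-anchored germ cell protein that is far more abundant, had 760 ± 137 and 667 ± 66.7 TPM and was not called. The 35 untested proteins of the list were under the filter.

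Of 29 genes of the machinery that builds the acrosome 21 were tested, and at 16 dpp 1 fell and 0 rose, with a median of -0.08. That share is near the 2.75% of all rows that fell. The gene that fell was Ccdc136, a coiled-coil protein needed for acrosome formation, at 84.7 ± 39.4 TPM in non-mutants and 39.0 ± 2.81 TPM in mutants (-0.99, adjusted p = 0.00239). From 12 to 16 dpp in non-mutants 9 of the 14 other acrosomal proteins rose and 1 fell, and 6 of the 21 machinery genes rose, where 8.88% of all rows rose and 2595 of 20021 fell. In mutants 3 of the 14 and 2 of the 21 rose over the same step, where 6.21% of all rows rose, so the machinery count there is near the background. The difference of the steps was called, as negative, for 3 of the 14, Pdcl2, Atp8b3 and Lypd4, and for 0 of the 21. Of all rows, 1.26% were called in that direction.

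Of 16 regulators of spermatocyte and spermatid transcription tested, 3 fell in mutants at 16 dpp and 0 rose, where 2.75% of all rows fell. Rfx4, over 1 TPM only in the 16 dpp non-mutants and so bound to differ there, had 4.78 ± 3.82 TPM in non-mutants and 0.15 ± 0.135 TPM in mutants (-2.08, adjusted p = 1.17e-06). Rfx2, a factor needed for spermatid maturation, had 22.8 ± 11.1 and 9.69 ± 2.02 TPM (-1.06, adjusted p = 0.0126). The third was Tcfl5, at -0.69 (adjusted p = 0.0331). Mybl1, the MYB factor of pachytene spermatocytes, had 31.1 ± 3.41 and 26.6 ± 2.71 TPM and was not called.

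Across the 30 libraries the ranked genes most like the mean profile of the 9 tested acrosome genes were Tmprss12, Ccdc60, Cfap57, Catsperg2 and Dnah7a. Their Pearson r was 0.990, 0.989, 0.988, 0.987 and 0.984 on log2(TPM + 1). Genes of the acrosome lists, rows without an Ensembl identifier or symbol, and predicted or clone-named genes were left out of this ranking. Among the acrosome genes themselves, r with the mean of the others was 0.984 for Dkkl1, 0.978 for Crisp2, 0.948 for Fabp9, 0.925 for Zpbp and 0.924 for Zpbp2 and Acr. It was 0.922 for Spink2, 0.727 for Acrbp and 0.598 for Spaca1. These correlations describe libraries that share age and genotype.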

How the data were processed

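The deposited values are TPM per gene, estimated by the authors; the submitters' processing notes name Bowtie 1.0.0, RSEM 1.2.8 and mm10 (GRCm38), with no order given. The use of read strand is not stated. The table holds 96.1 to 96.8% of each library's TPM total, so it seems to be cut after its 65534 rows. Genes not found in it may be among those lost, and shares of all rows refer to the rows held. Symbols came from GENCODE M21, and 37709 of 38906 Ensembl rows matched.

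One limma-trend fit (limma 3.58.1, R 4.3.3) on log2(TPM + 1) took in 6 groups (each class at each age), which share 1 spread per row. The fold change on this scale understates the change of low genes. The acrosome genes and lists were chosen with earlier results of these data known, and the lists overlap in part. Beside the 10 genes, up to 4 called genes with the smallest adjusted p were named per acrosome list and 2 per other list, and genes over 10 TPM by level; Tcfl5 and Mybl1 were named after their values were seen.

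The litter of each animal was read from the number after the age in its column name, which does not itself call that number a litter. Mutants and non-mutants of 1 litter deviated together from their group means in 13 of 17 pairs (r over 0.1; median 0.220, against -0.084 between litters), so litter was tried as a block. The other alternatives changed the pseudocount, filter, scaling, controls and libraries.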

Additional observations from a re-analysis of the deposited data

Results flagged for a closer look

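For 5 genes the change from 12 to 16 dpp differed between mutants and non-mutants by the test of the difference itself (limma, Benjamini-Hochberg adjusted over 20021 rows): Acr by -2.58, Spink2 by -3.37, Crisp2 by -3.48, Fabp9 by -3.26 and Dkkl1 by -3.02 in log2(TPM + 1), mutant minus non-mutant. For Acr a negative value was favoured, though not fixed, by the filter, which it passed only through the 16 dpp non-mutants. In 1 of 70 sets of 4 or 5 libraries examined for a library far from the others, Acrv1 was at 0.16 TPM in +/- replicate 2 of 8 dpp. It was at 0 in the other 4 non-mutants. The sets of 4 were the +/- libraries of 12 dpp, which also lie within sets of 5. Chance flags about 1 in 20 such sets.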

How the results depend on the processing

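No call of an acrosome gene changed direction under the alternatives run. The 8 calls at 16 dpp became 5 against +/+ libraries alone and 5 without the 2 highest +/- libraries, an alternative chosen after seeing the data. Leaving out each library in turn gave 5 to 8; the 5 came without +/- replicate 2 or 3 of 16 dpp, where Acr no longer passed the filter and Acrbp (adjusted p = 0.1198 and 0.1519) and Zpbp (adjusted p = 0.06305 and 0.06704) lost their calls. Acrbp also lost its call without -/- replicate 5 of 16 dpp (adjusted p = 0.08446). With litter as a fixed replicate block, Acrbp (adjusted p = 0.1259) and Zpbp (adjusted p = 0.07194) were not called, nor were they with only the groups compared in the fit (adjusted p = 0.125 and 0.1195). With litter as a random replicate block, Acrbp and Zpbp kept their 16 dpp calls, and Zpbp2 joined the differences of the age steps. The 2 calls of the 8 to 12 dpp step in non-mutants became 1 after quantile normalization and 1 without litter 13, and 0 to 2 on leaving out a library. The 9 calls of the 12 to 16 dpp step in non-mutants became 7 to 9 on leaving out a library, the 4 in mutants 3 to 5 and the 5 differences of the steps 4 to 6. Of all rows, 653 were called at 16 dpp, against 1181 with no filter, 405 with only the groups compared, 1103 with the random replicate block, 169 against +/+ alone, 191 without the 2 highest +/- libraries and 366 to 781 on leaving out a library. For the differences of the steps, 270 rows were called, against 168 with a pseudocount of 0.1, 416 with no filter, 447 with the random replicate block, 62 against +/+ alone, 166 against +/- alone, 79 without the 2 highest +/- libraries and 121 to 360 on leaving out a library. For 12 to 16 dpp in non-mutants, 4372 rows became 1808 without those 2 libraries. Depth is unknown in TPM, so values near 0, such as those of Acrv1 and of Acr in mutants, have no counting limit.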
